A study of Mus musculus with 4 samples.

Results

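The genes described here encode the nuclear subunits of the mitochondrial respiratory chain, measured in the mesenchyme of mouse molar tooth germs at embryonic day 14. They were chosen by name alone: every gene name in the deposited tables that begins as a subunit of complexes I to V (Nduf with a, b, c, s or v and a number, Cox4 to Cox8, Uqcr, Atp5, and Sdha to Sdhd) was taken. That gave 84 of 22072 gene names, and 79 of the 84 had a mean of at least 1 FPKM, a unit of fragments scaled to transcript length and to library size. Of the 84 names, 80 encode subunits of the chain: 36 of complex I, 4 of complex II, 8 of complex III, 17 of complex IV and 15 of complex V. The other 4 names match without encoding a classical subunit. Cox4nb is now called Emc8 and belongs to a complex of the endoplasmic reticulum, Cox7a2l helps join complexes III and IV into larger assemblies, and Atp5s and Atp5sl are now called Dmac2l and Dmac2.

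The study asked how loss of Msx1, a homeodomain transcription factor of dental mesenchyme, changes the transcriptome. The groups were Msx1-/- upper (maxillary) molars, Msx1+/- upper molars, Msx1-/- lower (mandibular) molars and Msx1+/- lower molars, with 1 library in each. The sample labels give the controls as Msx1+/-, while the series title and the run names call them wild type, so whether the controls carry 1 mutant copy is not settled by the sources. The strain is given as mixed and no allele is named. Mesenchyme was cut from frozen head sections with a laser, and RNA came from pools of 3 mutant and control pairs.

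Complex I (NADH dehydrogenase) and complex II (succinate dehydrogenase) feed electrons to ubiquinone, complex III passes them to cytochrome c, and complex IV (cytochrome c oxidase) hands them to oxygen. Complexes I, III and IV pump protons, and complex V (ATP synthase) uses the gradient to make ATP. Most subunits are nuclear and are made in every tissue, but several subunits of complex IV have isoforms known from heart, muscle, lung or testis. A further set of core subunits is encoded in mitochondrial DNA and was not analysed here.

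Each group holds 1 library, so no difference within a jaw or within a genotype has a replicate check, and none of these is given a p-value. A gene is called higher or lower at a difference in log2(FPKM + 1) of 1 or more, a scale that understates changes of weakly expressed genes. Summed read coverage over transcripts was 264 to 410 megabases a library. The Msx1-/- lower library was lower over most genes: over all 10536 genes measured, the genotype difference had a median of -0.03 in the upper jaw and -0.39 in the lower. Msx1 itself was at 126 FPKM in Msx1-/- and 169.6 FPKM in Msx1+/- upper molars, and at 85.9 FPKM in Msx1-/- and 184 FPKM in Msx1+/- lower molars, which checks no label because the allele is not named. Of 8 dental mesenchyme markers all 8 were measured, Pax9 among them at 45.7 to 68.1 FPKM, and 2 of them, Dlx2 and Runx2, were lower in both jaws. Among markers of other cells 2 of 4 measured for osteoblasts and 1 of 6 for epithelium were higher in both jaws, where 0.399% of all genes were. The osteoblast marker Sp7 went the other way, at -0.10 in upper and -0.95 in lower molars. Of 8 skeletal muscle markers 2 reached the minimum, and the summed level of all 8 was 3.9 to 6.5 FPKM. In bulk samples fewer cells of a type and less RNA per cell cannot be told apart.

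Respiratory chain genes were abundant. Their mean levels ran from 1.44 to 333 FPKM with a median of 45.7 FPKM, against a median of 5.08 FPKM over all genes, and 62 of the 79 lay in the top 10% of levels. Together the 84 genes held 2.76% of summed FPKM (failed estimates and small RNAs left out) in Msx1-/- and 2.73% in Msx1+/- upper molars, and 3.00% in Msx1-/- and 2.94% in Msx1+/- lower molars. The share was thus closer between genotypes of a jaw than between the jaws. ATP synthase genes held the largest part, at 0.967% in Msx1-/- and 1.01% in Msx1+/- upper molars and at 0.973% in Msx1-/- and 1.05% in Msx1+/- lower molars. Complex I came next, at 0.763% in Msx1-/- and 0.736% in Msx1+/- upper molars and at 0.901% in Msx1-/- and 0.790% in Msx1+/- lower molars. Complex II, the smallest complex, held 0.063% to 0.077% in the 4 libraries. None of the members was among the 20 most abundant genes of any library.

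**Figure D1:**
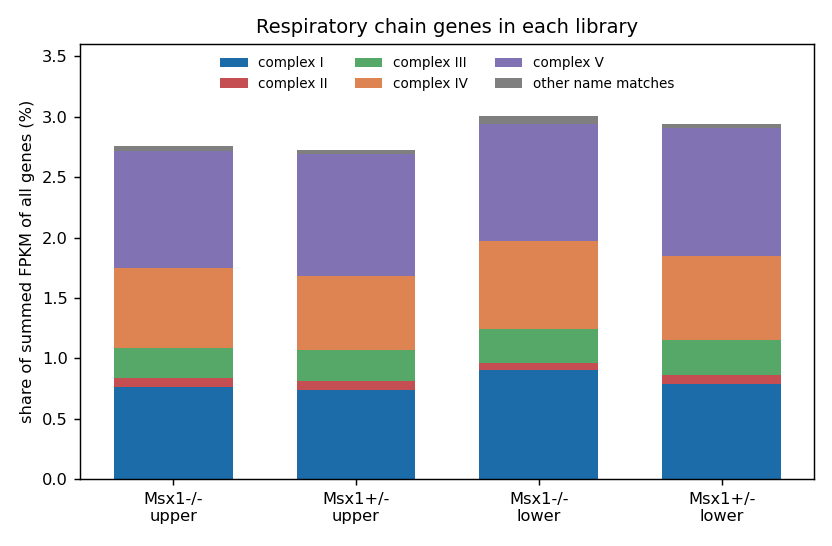
Share of the summed FPKM of all genes held by respiratory chain genes (y axis, percent) in each of the 4 libraries, with 1 library a bar and stacked colours for the complexes. The bars stand at 2.76% and 2.73% for Msx1-/- and Msx1+/- upper molars and at 3.00% and 2.94% for Msx1-/- and Msx1+/- lower molars.

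By complex, mean levels per gene (FPKM, which is per length) had medians of 33.4 for complex I, 28.9 for complex II, 47.0 for complex III, 75.1 for complex IV and 104 for complex V. The most abundant single gene was Cox7c, a small subunit of complex IV, at 326 FPKM in Msx1-/- and 339 FPKM in Msx1+/- upper molars, and at 263 FPKM in Msx1-/- and 404 FPKM in Msx1+/- lower molars. Atp5b, the catalytic beta subunit of ATP synthase, followed at 295 FPKM in Msx1-/- and 333 FPKM in Msx1+/- upper molars, and at 199.8 FPKM in Msx1-/- and 386 FPKM in Msx1+/- lower molars. For both genes the upper libraries lay close together and the lower libraries lay apart. In complex III the most abundant gene was Uqcr10, another small subunit, with a range of 139 to 208 FPKM over the libraries, and Uqcrh, the hinge protein beside cytochrome c1, ranged from 75.2 to 104 FPKM. Uqcr11, a further small subunit, ranged from 60.3 to 80.1 FPKM, and Uqcrc1, a core protein, from 20.7 to 35.2 FPKM with its highest level in the Msx1+/- upper library. In complex I Ndufa4 led at 62.3 to 125 FPKM, and its protein is now assigned to complex IV. Ndufb9 and Ndufa2, accessory subunits, came next, and both were highest in the Msx1-/- lower library, at 94.5 and 93.1 FPKM. Cox6a1, second in complex IV, ranged from 152 to 217 FPKM. In ATP synthase Atp5e, the epsilon subunit, ranged from 193 to 270.4 FPKM, and Atp5j2, a membrane subunit with the mean difference nearest 0 in that complex, from 74.9 to 100.4 FPKM.

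The first comparison was between Msx1-/- and Msx1+/- mesenchyme. As a group the respiratory chain genes had a median difference close to that of all genes, though not to that of other abundant genes in lower molars. Their median genotype difference was -0.02 in upper molars, against -0.03 for all genes. In lower molars it was -0.39, and that of all genes was also -0.39. In upper molars 2 of 79 members were lower (Atp5g2 and Ndufa10) and 0 higher, where 3.26% of all genes were lower and 1.07% higher. In lower molars 4 of 79 were lower (Cox4i2, Cox5a, Sdhc and Uqcrq) and 0 higher, where 9.43% of all genes were lower and 0.864% higher. No member was called in both jaws, against 1.59% of all genes lower and 0.399% higher. Just inside the limit lay Atp5g2 (-1.09) in upper molars and Uqcrq, almost at the limit itself, in lower molars. Just outside lay Ndufs5 (-0.97) and Ndufa4 (-0.99).

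Relative to the median of all genes, the lower-molar calls shrank to Cox4i2 alone, at -1.61, where 3.06% of all genes were lower and 2.37% higher. Cox5a then differed by -0.74, Sdhc by -0.69 and Uqcrq by -0.62. In upper molars Ndufa10 (-1.18) and Atp5g2 (-1.06) were again lower, where 3.06% of all genes were lower and 1.17% higher. Members were spread less widely than all genes, with a standard deviation across genes of 0.33 against 0.49 in upper and 0.39 against 0.53 in lower molars. Among the 1277 genes averaging 20 FPKM or more, 3 of 65 members were lower in lower molars and 0 higher, where 19.6% of such genes were lower and 0.783% higher. Their median in lower molars was -0.39 for those 65 members and -0.57 for the other 1212 genes of that level. The median of the members minus that of all genes, -0.01 in lower molars, was 0.16 among genes of that level and -0.22 with no filter on low values. The genotype differences of the jaws, which share no library, had a Pearson r of 0.186 over the 79 members and 0.531 over all genes, given as a description across genes that are not replicates.

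**Figure D2:**
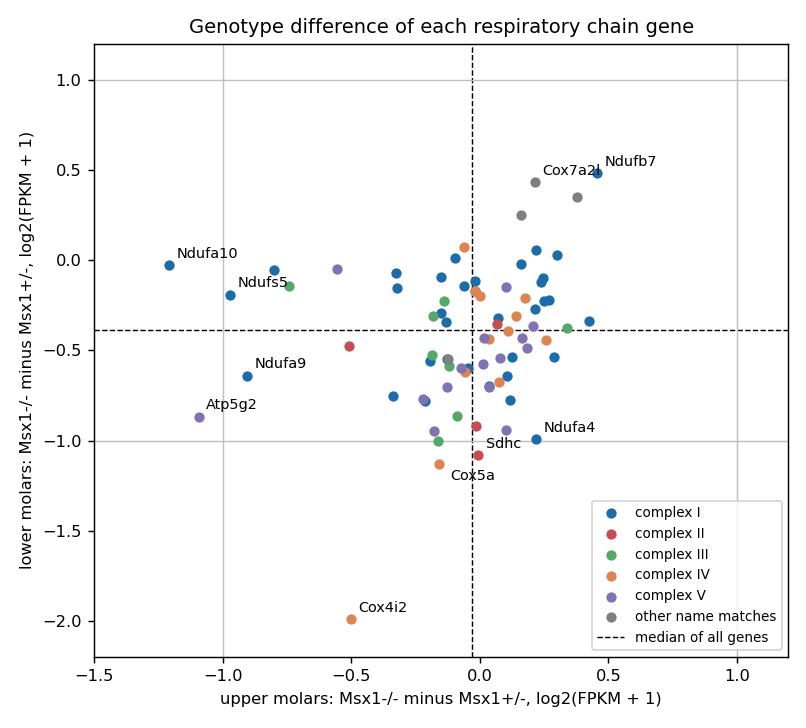
Genotype difference of each of the 79 measured genes, Msx1-/- minus Msx1+/- on the log2(FPKM + 1) scale, in upper molars (x axis) and lower molars (y axis), with 1 point a gene coloured by complex. Dashed lines are the medians of all genes (-0.03 and -0.39), grey lines mark differences of 1, and Cox4i2 lies lowest at -1.99 in lower molars.

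Levels of the 2 Msx1-/- libraries lay below both Msx1+/- libraries in 35 of 79 members (44.3%), where 41.3% of all genes and 51.1% of genes averaging 20 FPKM or more did so. The 2 Msx1-/- libraries lay above both Msx1+/- libraries in 4 members (5.06%), where 9.52% of all genes and 4.7% of genes averaging 20 FPKM or more did so. Those 4 were Ndufb7, Cox7a2l, Atp5s and Atp5sl, so 3 of the 4 were among the name matches that are not classical subunits. The highest level was in the Msx1+/- lower library for 60 members (75.9%, against 43.5% of all genes and 57.3% of genes averaging 20 FPKM or more). The lowest was in the Msx1-/- lower library for 41 (51.9%, against 66.0% of all genes and 71.6% of genes averaging 20 FPKM or more).

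Cox4i2 stood apart most. It encodes the alternative form of subunit 4 of complex IV, known in mouse from lung. On mm9 it lies at chromosome 2, 152579909 to 152590773. Its level was 4.70 FPKM in Msx1-/- and 7.06 FPKM in Msx1+/- upper molars, and 1.69 FPKM in Msx1-/- and 9.71 FPKM in Msx1+/- lower molars. Both Msx1-/- libraries were below both Msx1+/- libraries. The difference of -1.99 in lower molars passed the rule and that of -0.50 in upper molars did not. The widespread partner Cox4i1 was at 157 FPKM in Msx1-/- and 153 FPKM in Msx1+/- upper molars, and at 124 FPKM in Msx1-/- and 168 FPKM in Msx1+/- lower molars. Cox4i2 made up 2.90% of the pair in Msx1-/- and 4.41% in Msx1+/- upper molars, and 1.35% in Msx1-/- and 5.46% in Msx1+/- lower molars.

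Cox4i2 and Ndufa4l2 are known in mouse as genes rich in pericytes, the contractile cells around small vessels, and a pericyte list was written after the value of Cox4i2 had been seen. Of its 11 genes 5 were measured, with 2 lower in lower molars (Rgs5 and Mcam), 1 of them relative to the median of all genes, and 0 called in upper molars. Of all genes 9.43% were lower in lower molars, or 3.06% relative to the median, and 3.26% were lower and 1.07% higher in upper molars. Rgs5, a defining pericyte gene, was at 5.96 FPKM in Msx1-/- and 11.8 FPKM in Msx1+/- upper molars, and at 2.07 FPKM in Msx1-/- and 10.8 FPKM in Msx1+/- lower molars. Mcam, also on endothelium, was at 4.69 FPKM in Msx1-/- and 8.26 FPKM in Msx1+/- upper molars, and at 3.88 FPKM in Msx1-/- and 11.0 FPKM in Msx1+/- lower molars. In both Msx1-/- libraries the levels of 4 of the 5 measured genes lay below those in both Msx1+/- libraries, a pattern that 41.3% of all genes had. The exception was Cspg4, at 2.42 FPKM in Msx1-/- and 2.24 FPKM in Msx1+/- upper molars, and at 2.52 FPKM in Msx1-/- and 3.03 FPKM in Msx1+/- lower molars. Of the list's genes under the minimum, Higd1b was at 0 to 0.13 FPKM and Vtn at 0. The 5 measured genes had a median difference of -0.68 in the upper jaw and -0.49 in the lower, against -0.03 and -0.39 for all genes. Relative to all genes these medians were -0.65 in the upper jaw and -0.10 in the lower, the jaw where Cox4i2 differed most. The summed level of the list without 1 failed estimate (10 genes) was 21.3 to 25.1 FPKM in Msx1-/- and 39.5 to 42.5 FPKM in Msx1+/- libraries. With that estimate the sum was 31.1 to 42.0 FPKM in Msx1-/- and 77.4 to 85.2 FPKM in Msx1+/- libraries. Ndufa4l2, a paralog of Ndufa4 that the name pattern does not take, was at 1.31 FPKM in Msx1-/- and 1.63 FPKM in Msx1+/- upper molars, and at 0.660 FPKM in Msx1-/- and 3.13 FPKM in Msx1+/- lower molars. The part of pericyte content in the Cox4i2 values was not tested.

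The other tissue isoforms of complex IV were near or at 0. Cox8c (testis) was listed at 0 in every library, and Cox6a2 and Cox8b (heart and muscle) were listed at 0 in all but the Msx1+/- lower library, where they were at 0.0961 and 0.360 FPKM. Cox7b2 was at 0.112 FPKM in Msx1-/- and 0 in Msx1+/- upper molars, and at 0.179 FPKM in Msx1-/- and 0 in Msx1+/- lower molars. Cox7a1, the heart and muscle form of subunit 7a, was at 0.595 FPKM in Msx1-/- and 0.315 FPKM in Msx1+/- upper molars, and at 1.46 FPKM in Msx1-/- and 0.281 FPKM in Msx1+/- lower molars. The widespread partners were far higher, with Cox7a2 at 42.7 to 69.0 FPKM, Cox7b at 32.4 to 42.4 FPKM and Cox8a at 124 to 151 FPKM. The 5 isoforms near 0 did not reach the minimum and enter no count. Cox6b2, known from testis, was the exception. Its summed level held a steady part of its pair with Cox6b1, at 13.6% in Msx1-/- and 13.3% in Msx1+/- upper molars, and at 13.0% in Msx1-/- and 12.6% in Msx1+/- lower molars. That sum joins 2 transcript entries with opposite genotype differences. In Msx1-/- and Msx1+/- the 551-base entry was at 4.39 and 5.81 FPKM in upper and at 2.19 and 5.90 FPKM in lower molars. The 461-base entry was at 5.66 and 3.20 FPKM in upper and at 5.91 and 4.38 FPKM in lower molars.

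A set of 3 genes encodes the c subunit, whose ring turns in the membrane part of ATP synthase. Atp5g1, Atp5g2 and Atp5g3 make the same mature protein and differ in the targeting peptide that is cut off. Atp5g2 (chromosome 15, 102493299 to 102501478) was at 125 FPKM in Msx1-/- and 268 FPKM in Msx1+/- upper molars, and at 78.3 FPKM in Msx1-/- and 144 FPKM in Msx1+/- lower molars. Both Msx1-/- libraries lay below both Msx1+/- libraries, and the Msx1+/- upper library was the highest by far. Its difference was -1.09 in the upper jaw, past the limit, and -0.87 in the lower, short of it. With the libraries scaled to a common upper quartile the upper-jaw difference was -0.96, also short of the limit. Atp5g1 was at 53.4 FPKM in Msx1-/- and 62.5 FPKM in Msx1+/- upper molars, and at 41.2 FPKM in Msx1-/- and 71.1 FPKM in Msx1+/- lower molars. Atp5g3 was at 104 FPKM in Msx1-/- and 114 FPKM in Msx1+/- upper molars, and at 109 FPKM in Msx1-/- and 178 FPKM in Msx1+/- lower molars. Neither was called with its entries summed, with upper-jaw differences of -0.22 and -0.13 and lower-jaw differences of -0.77 and -0.71. For Atp5g1 the sum joins transcript entries that differ in the lower jaw. In Msx1-/- and Msx1+/- the 798-base entry was at 40.5 and 46.6 FPKM in upper and at 19.6 and 45.6 FPKM in lower molars. Taken alone, that entry passed the limit in lower molars. The 805-base entry was at 12.9 and 15.9 FPKM in upper and at 21.6 and 25.5 FPKM in lower molars. Atp5g2 made up 44.4% of the summed c subunit level in Msx1-/- and 60.4% in Msx1+/- upper molars, and 34.3% in Msx1-/- and 36.6% in Msx1+/- lower molars. The summed level of the trio had a difference of -0.65 in the upper jaw and -0.78 in the lower.

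**Figure D3:**
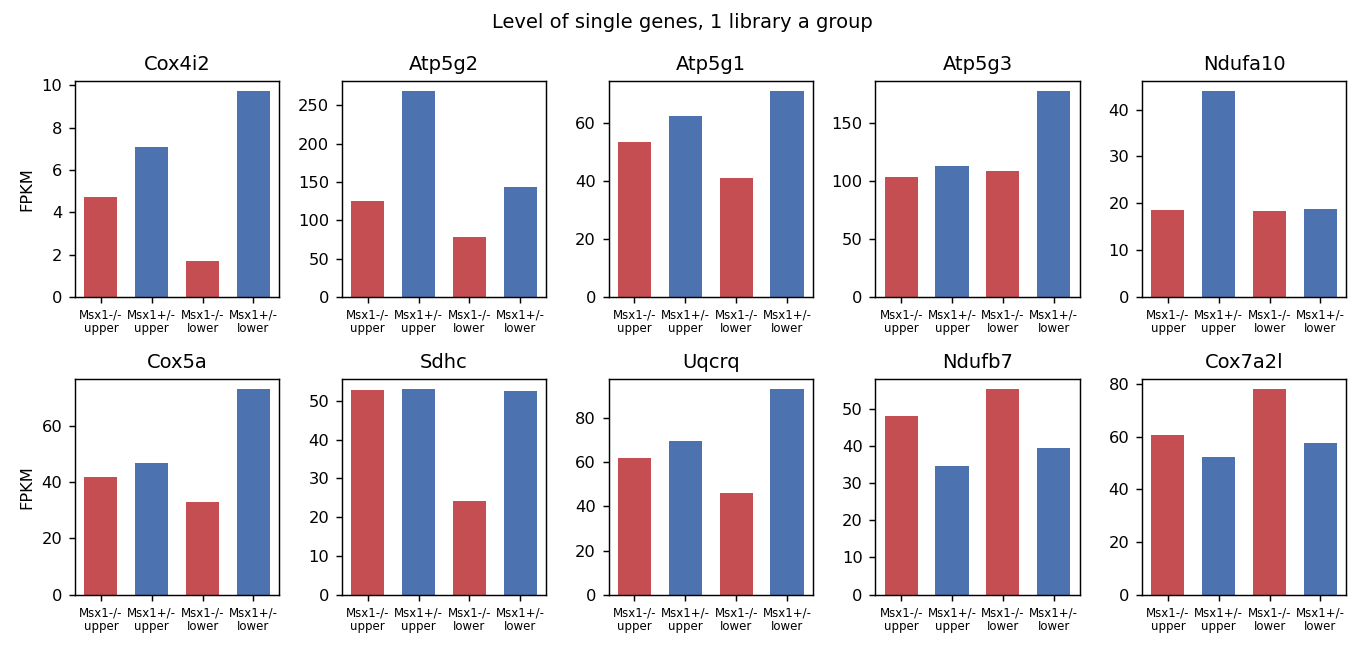
FPKM (y axis, linear from 0) of 10 respiratory chain genes in each library, with Msx1-/- in red and Msx1+/- in blue and 1 library a bar. Cox4i2 and Atp5g2 lie below both Msx1+/- libraries in the Msx1-/- libraries, Ndufa10 is high in the Msx1+/- upper library alone, and Ndufb7 and Cox7a2l lie above them by less than the limit of 1.

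In complex I, 36 of 36 genes were measured, 1 was lower in upper molars and 0 were called in lower molars. Ndufa10, an accessory subunit of the proton-pumping arm (chromosome 1, 94336296 to 94370335), was at 18.5 FPKM in Msx1-/- and 43.9 FPKM in Msx1+/- upper molars, and at 18.3 FPKM in Msx1-/- and 18.7 FPKM in Msx1+/- lower molars. Only the Msx1+/- upper library stood out, and the other 3 lay close together. Ndufa9, an accessory subunit near the ubiquinone site, was at 17.7 FPKM in Msx1-/- and 34.0 FPKM in Msx1+/- upper molars, and at 16.4 FPKM in Msx1-/- and 26.1 FPKM in Msx1+/- lower molars. Both Msx1-/- libraries lay below both Msx1+/- libraries, and the differences of -0.90 and -0.64 did not reach the limit. At the other end, Ndufb7, an accessory subunit of the far membrane arm, was at 47.9 FPKM in Msx1-/- and 34.6 FPKM in Msx1+/- upper molars, and at 55.3 FPKM in Msx1-/- and 39.3 FPKM in Msx1+/- lower molars. Its differences of 0.46 and 0.48 were near equal in the jaws and below the limit.

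The 7 nuclear core subunits of complex I, which carry the electrons, had a median difference of -0.05 in the upper jaw and -0.54 in the lower, and the 29 accessory subunits one of -0.02 and -0.19. Relative to all genes, 23 of 36 complex I genes lay above the median in lower molars, whereas 12 of 15 ATP synthase genes lay below it. The ATP synthase genes all averaged 30.2 FPKM or more. Their median in lower molars was -0.58 and that of complex I was -0.25, where other genes averaging 20 FPKM or more had -0.57. Against genes of that level the ATP synthase median was thus not low. The difference between complexes was not tested. Ndufs5 needs a caution, because its span overlaps that of BC002163 over 5452 of 5477 bases on mm9. Ndufs5 was at 5.41 FPKM in Msx1-/- and 11.6 FPKM in Msx1+/- upper molars and BC002163 at 46.4 FPKM in Msx1-/- and 70.0 FPKM in Msx1+/- upper molars, so how the counting divided reads between them is uncertain. Their summed level had a difference of -0.65 in the upper jaw and 0.096 in the lower.

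All 4 genes of complex II were measured, and Sdhc, a membrane anchor that binds ubiquinone, was lower in lower molars. Sdhc (chromosome 1, 173059288 to 173080734) was at 52.9 FPKM in Msx1-/- and 53.1 FPKM in Msx1+/- upper molars, and at 24.3 FPKM in Msx1-/- and 52.5 FPKM in Msx1+/- lower molars. The Msx1-/- lower library alone was low. Sdha, the flavoprotein, was at 22.8 FPKM in Msx1-/- and 32.9 FPKM in Msx1+/- upper molars, and at 20.6 FPKM in Msx1-/- and 29.0 FPKM in Msx1+/- lower molars. Sdhb, the iron-sulphur subunit, lay between 28.9 and 37.7 FPKM in all libraries.

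In complex III, 1 of 8 genes was called, Uqcrq, a small ubiquinone-binding subunit (chromosome 11, 53242450 to 53244333). Uqcrq was at 61.9 FPKM in Msx1-/- and 69.5 FPKM in Msx1+/- upper molars, and at 46.0 FPKM in Msx1-/- and 93.3 FPKM in Msx1+/- lower molars. In complex IV, Cox5a, a matrix-side subunit (chromosome 9, 57369039 to 57380233), was at 42.0 FPKM in Msx1-/- and 46.9 FPKM in Msx1+/- upper molars, and at 32.9 FPKM in Msx1-/- and 73.2 FPKM in Msx1+/- lower molars. For both genes the Msx1+/- lower library was the highest and the Msx1-/- lower library the lowest. Cox6c went the other way in the lower jaw, at 71.3 FPKM in Msx1-/- and 74.4 FPKM in Msx1+/- upper molars, and at 107 FPKM in Msx1-/- and 102 FPKM in Msx1+/- lower molars. Cox7a2l was at 60.8 FPKM in Msx1-/- and 52.3 FPKM in Msx1+/- upper molars, and at 78.2 FPKM in Msx1-/- and 57.6 FPKM in Msx1+/- lower molars, with differences of 0.21 and 0.44.

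The peripheral stalk of ATP synthase holds the catalytic head still. Its 4 genes had differences between 0.03 and 0.21 in upper and between -0.70 and -0.36 in lower molars. The 5 genes of the head and central stalk lay between -0.18 and 0.18 in upper and between -0.95 and -0.43 in lower molars, so all 5 were below the median of all genes in lower molars. Their own median there was -0.58, close to the -0.57 of other genes averaging 20 FPKM or more.

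The second comparison set the jaws against each other within a genotype. In Msx1-/- molars 2 of 79 members were higher in upper molars (Sdhc at 1.09 and Cox4i2 at 1.08) and 0 lower, where 3.22% of all genes were higher and 0.408% lower. In Msx1+/- molars 1 of 79 was higher (Ndufa10 at 1.19) and 0 lower, where 1.48% of all genes were higher and 0.218% lower. No member was called in both genotypes, against 0.133% of all genes higher and 0.0285% lower. Relative to the median of all genes, no member was called in Msx1-/- molars, where 1.29% of all genes were higher and 0.902% lower. In Msx1+/- molars Ndufa10 was again higher, where 1.8% of all genes were higher and 0.152% lower.

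The median upper minus lower difference of the members was 0.19 in Msx1-/- and -0.28 in Msx1+/- molars, against 0.27 and -0.08 for all genes. In Msx1+/- molars 67 of 79 members (84.8%) had a lower level in the upper library, by amounts below the limit, where 62.7% of all genes did. All 12 measured genes of complex IV were among the 67. The pattern was not particular to the members. Of cytosolic ribosomal protein genes 75 of 79 had it. Among other lists described below, it held for 88.9% of antioxidant enzymes, 84.2% of citric acid cycle genes and 82.9% of mitochondrial ribosome and translation genes. Shares were 78.6% for assembly factors, 77.8% for biogenesis regulators, 70.8% for electron carriers and transporters and 63.6% for glycolysis. Transcript length moved with this pattern. The median length of the members was 679 bases against 2820 bases for all genes, and 54 of the 79 were under 1000 bases. Other genes under 1000 bases (840 genes) had a median upper minus lower difference of 0.15 in Msx1-/- and -0.24 in Msx1+/- molars, and the 54 short members one of 0.15 and -0.33. Other genes of 2500 bases or more (6050 genes) had medians of 0.28 and -0.02. The part of transcript length in the jaw difference was not tested.

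**Figure D4:**
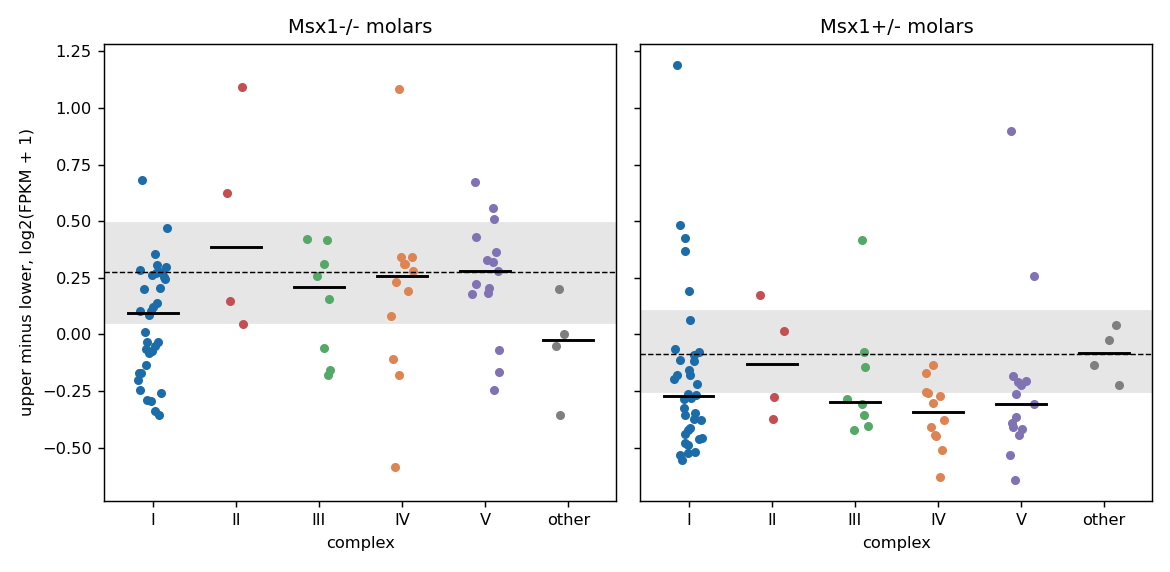
Upper minus lower difference on the log2(FPKM + 1) scale (y axis) of each measured gene by complex (x axis), in Msx1-/- molars (left) and Msx1+/- molars (right), with 1 point a gene and black bars at the median of the complex. The dashed line and grey band are the median and quartiles of all genes, and in Msx1+/- molars every complex IV gene lies below 0.

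A limma fit with genotype and jaw as terms takes the genotypes as replicates for the jaw difference and the jaws as replicates for the genotype difference. It called 0 members between jaws, where it called 0.807% of all genes, and 1 between genotypes (Cox4i2), where it called 5.55%.

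The genotype difference itself was at least 1 apart between jaws in 5 members, more positive in upper molars for Cox4i2, Ndufa4, Sdhc and Atp5l and more negative for Ndufa10, where 5.6% of all genes were more positive and 1.31% more negative. The median of this quantity was 0.42 for the members and 0.34 for all genes. Relative to that median, Cox4i2 (1.15) was more positive and Ndufa10, Ndufs5 and Ndufs3 were more negative, where 1.46% of all genes were more positive and 2.84% more negative. Atp5g2 and Ndufa10 were the only measured members at least 1.5-fold higher in the Msx1+/- upper library than in each other library, a pattern that 3.84% of all genes had. Both genotype calls in upper molars are thus made against that library.

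Wider pathway lists, also chosen with earlier results known, are given as medians in upper and then lower molars. Beside their counts stand the shares of all genes that were lower, 3.26% in upper and 9.43% in lower molars, or 3.06% in each jaw relative to the median of all genes. Of 28 measured assembly factors, 0 were called in either jaw, with medians of 0.11 and -0.35. Tmem126b, needed to assemble complex I, stood highest in the mean difference, at 4.08 FPKM in Msx1-/- and 2.60 FPKM in Msx1+/- upper molars, and at 4.19 FPKM in Msx1-/- and 2.45 FPKM in Msx1+/- lower molars. Sdhaf1, an assembly factor of complex II, stood lowest, at 5.74 FPKM in Msx1-/- and 9.19 FPKM in Msx1+/- upper molars, and at 3.94 FPKM in Msx1-/- and 7.33 FPKM in Msx1+/- lower molars. Neither reached the limit. Mitochondrial ribosome and translation genes (82 measured) had medians of 0.01 and -0.44, with 2 lower in upper and 2 lower in lower molars, or 2 and 0 relative to the median. Mrps2 and Mrpl44 were the lowest of that list in the mean difference, and both were highest in the Msx1+/- upper library, with Mrps2 at 9.39 FPKM in Msx1-/- and 23.6 FPKM in Msx1+/- upper molars. Mrpl14 and Mrpl23 stood highest, with differences of 0.47 and 0.32 in upper and 0.33 and 0.44 in lower molars. The citric acid cycle (19 measured) had medians of -0.0025 and -0.54 with 1 gene lower in lower molars, or 0 relative to the median. That gene was Mdh2, the mitochondrial malate dehydrogenase. Mdh2 was at 91.5 FPKM in Msx1-/- and 109 FPKM in Msx1+/- upper molars, and at 51.2 FPKM in Msx1-/- and 119.6 FPKM in Msx1+/- lower molars.

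Among electron carriers and transporters (24 measured), 3 were lower in lower molars, or 1 relative to the median, and 0 were called in upper molars. Slc25a5, which exchanges ADP for ATP across the inner membrane, was at 49.0 FPKM in Msx1-/- and 76.7 FPKM in Msx1+/- upper molars, and at 32.6 FPKM in Msx1-/- and 88.7 FPKM in Msx1+/- lower molars. Pdss1, which starts the ubiquinone tail, was lower at -1.10 in lower molars, and Coq5, a ubiquinone synthesis enzyme, stood highest at 0.21 and 0.59. Antioxidant enzymes (9 measured) had 2 lower in lower molars, Prdx3, the mitochondrial peroxiredoxin, at -1.52 and Gsr, glutathione reductase, at -1.36, and 1 was lower relative to the median. Biogenesis regulators (18 measured) had medians of -0.12 and -0.60, with 1 lower in upper molars and 2 lower in lower molars, or 1 and 0 relative to the median. Relative to the median 1 was higher in lower molars, Mterfd2 (0.68 as deposited), where 2.37% of all genes were higher. Mterfd1, a regulator of mitochondrial gene expression, was at 8.36 FPKM in Msx1-/- and 52.1 FPKM in Msx1+/- upper molars, and at 6.58 FPKM in Msx1-/- and 9.89 FPKM in Msx1+/- lower molars, so again the Msx1+/- upper library alone was high.

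Glycolysis, the other route to ATP, had 22 measured genes with medians of -0.10 in upper and -0.57 in lower molars, 1 lower in upper and 4 lower in lower molars, or 1 and 2 relative to the median. Slc16a1, a lactate transporter, was its only gene called in both jaws, at -1.55 and -1.80. Ldha, lactate dehydrogenase A, was at 124 FPKM in Msx1-/- and 168 FPKM in Msx1+/- upper molars, and at 63.6 FPKM in Msx1-/- and 214 FPKM in Msx1+/- lower molars. Cytosolic ribosomal protein genes (79 measured), another set of short and abundant transcripts, had medians of 0.12 and -0.32. In upper molars 1 was higher (Rpl26) and 1 lower (Rpl7l1), and in lower molars 2 were lower, Rpl34 among them.

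Sequences around the annotated starts were set beside these values because regulators shared by these genes are known. RefSeq windows of GRCm38.p6, from 250 bases before to 50 bases after the start, were found for 66 of the 80 subunit genes, 1 window a gene. Motifs were searched on both strands: GCATGCGC for the core of nuclear respiratory factor 1 (NRF1), which is known to act on many genes of oxidative phosphorylation, AAGATGGC for YY1, CCGGAAG for ETS factors such as GABP, GGGCGG for Sp1 and TATAAA for the TATA box. The NRF1 core was found in 10 of 66 windows (15.2%), against 6.07% of 7560 windows of measured genes and 2.80% of all 27025 windows. YY1 was found in 9 (13.6%, against 5.16% and 2.88%) and ETS in 15 (22.7%, against 19.6% and 9.12%). Sp1 was found in 26 (39.4%, against 68.4% and 35.9%). TATAAA was found in 7 (10.6%, against 6.34% and 14.2%). The 66 windows include those of Cox7a1, Cox7b2 and Cox8b, which did not reach the minimum and so are not measured genes. Cox7b2 and Cox8b were among the 7 with TATAAA. A match is a description of letters in a window and shows no binding.

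**Figure D5:**
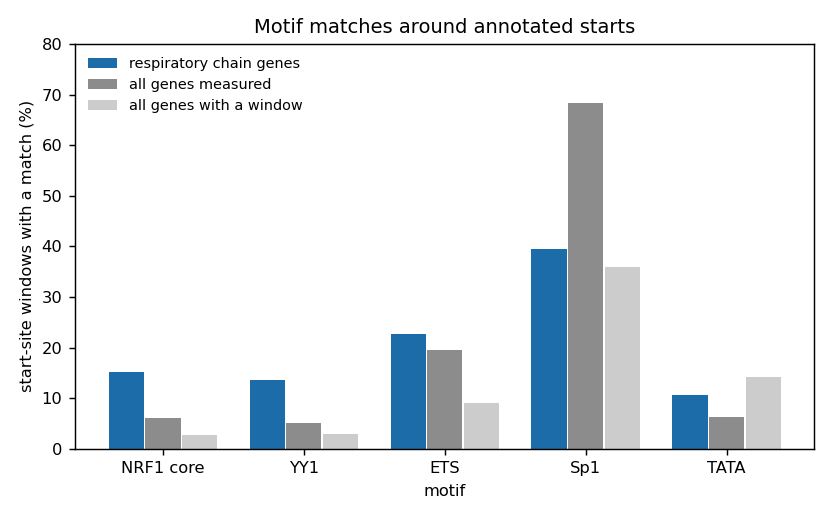
Share of start-site windows with a motif match (y axis, percent, from 0) for 66 respiratory chain genes, 7560 measured genes and 27025 genes with a window, by motif (x axis). The NRF1 core stands at 15.2%, 6.07% and 2.80%, and Sp1 at 39.4%, 68.4% and 35.9%.

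The windows of the 3 c subunit genes are shown because those genes make 1 mature protein yet differed in level, with that of Atp5l, another membrane subunit of ATP synthase, for its NRF1 and ETS matches, and that of Ndufb7, the most positive subunit. They read 5′ to 3′ along the gene, and capitals mark matches to the NRF1 core, YY1 and ETS motifs.
Atp5g1 (chr11:96075582-96075881, minus strand): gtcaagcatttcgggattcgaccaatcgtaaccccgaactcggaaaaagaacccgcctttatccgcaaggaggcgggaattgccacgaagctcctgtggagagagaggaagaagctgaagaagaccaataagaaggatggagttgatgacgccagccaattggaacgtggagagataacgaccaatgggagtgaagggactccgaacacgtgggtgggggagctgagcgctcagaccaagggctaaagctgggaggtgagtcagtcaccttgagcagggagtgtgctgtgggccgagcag
Atp5g2 (chr15:102670998-102671297, minus strand): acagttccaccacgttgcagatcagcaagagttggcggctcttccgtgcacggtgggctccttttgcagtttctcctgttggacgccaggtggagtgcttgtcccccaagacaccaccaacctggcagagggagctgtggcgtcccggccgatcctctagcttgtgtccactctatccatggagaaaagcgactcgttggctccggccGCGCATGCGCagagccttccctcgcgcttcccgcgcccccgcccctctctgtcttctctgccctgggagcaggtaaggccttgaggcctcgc
Atp5g3 (chr2:73911277-73911576, minus strand): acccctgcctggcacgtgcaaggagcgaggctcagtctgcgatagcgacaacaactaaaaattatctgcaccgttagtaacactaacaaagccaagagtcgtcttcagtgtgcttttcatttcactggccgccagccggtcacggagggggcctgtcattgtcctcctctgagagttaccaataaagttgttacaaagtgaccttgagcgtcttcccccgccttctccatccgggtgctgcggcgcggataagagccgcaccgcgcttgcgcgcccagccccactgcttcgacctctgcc
Atp5l (chr9:44920693-44920992, minus strand): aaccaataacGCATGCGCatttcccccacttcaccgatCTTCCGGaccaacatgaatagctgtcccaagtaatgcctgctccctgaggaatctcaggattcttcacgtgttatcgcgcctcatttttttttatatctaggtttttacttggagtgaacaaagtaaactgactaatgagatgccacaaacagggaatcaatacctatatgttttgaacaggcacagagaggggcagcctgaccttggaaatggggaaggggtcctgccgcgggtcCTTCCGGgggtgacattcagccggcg
Ndufb7 (chr8:83566508-83566807, plus strand): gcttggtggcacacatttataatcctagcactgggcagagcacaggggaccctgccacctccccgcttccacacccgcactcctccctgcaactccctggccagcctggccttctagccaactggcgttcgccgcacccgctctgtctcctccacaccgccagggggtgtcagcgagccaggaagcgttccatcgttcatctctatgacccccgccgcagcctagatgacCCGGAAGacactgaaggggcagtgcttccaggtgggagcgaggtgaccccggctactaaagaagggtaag
The capitals in the Atp5g2 window are 2 overlapping NRF1 core matches, 1 on each strand. Atp5l has 1 NRF1 core and 2 ETS matches and Ndufb7 has 1 ETS match, while those letters are not in the windows of Atp5g1 and Atp5g3.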

How the data were processed

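RNA from laser-captured molar mesenchyme was made into cDNA with a NuGEN Ovation kit, per the labels, which do not say that strand was kept. Reads were aligned to mm9 with Bowtie 0.12.7 and TopHat 1.4.1, per the submitters' processing notes. The authors deposited an FPKM value and a coverage signal for each of 28107 RefSeq transcripts, in Cufflinks output (version not stated). Coverage equals FPKM times a constant within a library, 0.812 to 1.09. FPKM was summed per gene name. Genes with a failed estimate (66) or a small RNA name (716) were left out, and 10536 genes averaging 1 FPKM or more were kept. Values were used as log2(FPKM + 1) with no rescaling. Table starts are 0-based and were shifted by 1. Whole reads were not recovered, so no count model or counting interval is given. With 1 library a group, differences were described by a limit of 1 and set beside all genes. limma 3.58.1 (R 4.3.3) with genotype and jaw as terms was run as an alternative and, like the fold rule, tested on simulated data. The others were pseudocounts, filters, rescalings, 1 transcript a gene and subunits only.

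Members and lists were chosen with earlier results of these data known. Genes were named from the 3 most abundant of each complex, the ends of its mean differences, every called member, tissue isoforms with their partners, members under the minimum and the ends of each pathway list. Others, such as Ndufs3, Ndufs5, Cox7a2l, Atp5s, Atp5l and the pericyte genes, were named after their values were seen. Of the remaining cell-type lists, as medians in upper and lower molars, epithelium stood at 0.43 and 0.18, macrophages at 0.56 and 0.34, erythroid cells at -0.49 and -0.53, and endothelium at -0.08 and -0.35. Each of these had 6 measured genes, and all genes stood at -0.03 and -0.39. Osteoblasts (4 measured) stood at 0.98 and 0.60 but split. Ibsp (1.93 and 1.59) and Ifitm5 (1.60 and 1.40) were higher, Sp7 stood at -0.10 and -0.95 and Alpl at 0.36 and -0.20. Neurons and glia, at 0.43 and 0.71, rest on 2 genes, Gap43 (0.96 and 0.11) and Nefl (-0.10 and 1.31).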

Additional observations from a re-analysis of the deposited data

Results flagged for a closer look

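Atp5l and Ndufa4 had genotype differences of opposite sign in the jaws that lay at least 1 apart. Atp5l was at 127 FPKM in Msx1-/- and 118 FPKM in Msx1+/- upper molars, and at 88.6 FPKM in Msx1-/- and 171 FPKM in Msx1+/- lower molars. The upper-jaw difference was 0.10 and the lower-jaw difference -0.94, a gap of 1.04. Ndufa4 was at 101 FPKM in Msx1-/- and 86.3 FPKM in Msx1+/- upper molars, and at 62.3 FPKM in Msx1-/- and 125 FPKM in Msx1+/- lower molars. The upper-jaw difference was 0.22 and the lower-jaw difference -0.99, a gap of 1.21. The median of this gap over all genes was 0.34, and relative to it the gaps were 0.70 and 0.87. Whether the jaws differ was not tested, since each group holds 1 library.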

How the results depend on the processing

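The counts of called members depended most on scaling in lower molars. Relative to the median of all genes, and after rescaling by median of ratios, to a common upper quartile or to a common total, 1 member was called in lower molars in place of 4, and 0 in place of 2 between the jaws of Msx1-/-. Calls over all genes shrank as well relative to the median. Genes lower in lower molars went from 9.43% to 3.06%, and genes higher in the upper jaw of Msx1-/- from 3.22% to 1.29%. With a common upper quartile Atp5g2 was not called in upper molars (-0.96), which left 1 of 2 calls there, and with a common total Atp5g2 was called between the jaws of Msx1+/- (1.03), which made 2 calls. With a pseudocount of 5 FPKM, 2 members were called in lower molars, 0 between the jaws of Msx1-/- and 3 in the genotype by jaw difference. Shares of all genes called with that pseudocount, after the rescalings or with 1 transcript entry are not given. Those counts therefore do not set the members apart from other genes. With only the transcript entry of highest mean for each gene, Atp5g1 also passed the limit in lower molars. That entry was at 19.6 FPKM in Msx1-/- and 45.6 FPKM in Msx1+/- lower molars. Between the jaws of Msx1-/- it passed narrowly as well, at 40.5 FPKM in the upper library. Members at a mean of at least 20 FPKM gave 1 call of 65 between the jaws of Msx1-/- (Sdhc, higher in the upper library), where 6.81% of such genes were higher and 0.313% lower. Leaving out genes high in the Msx1+/- upper library alone removes Atp5g2 and Ndufa10 themselves, so the 0 calls left in upper molars and 0 between the jaws of Msx1+/- follow from the filter. These last 2 settings were chosen after the data were seen.

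The median of the members minus that of all genes was -0.01 in lower molars, and it moved to -0.14 with a pseudocount of 5 FPKM, to -0.22 without a filter and to 0.16 at a mean of at least 20 FPKM. For the genotype by jaw difference it was 0.08 and moved to 0.19, 0.26 and -0.037 in those settings. Between the jaws of Msx1-/- it was -0.09 and moved to 0.040 without a filter. A move is a change of more than 0.1, and the cause was not tested. limma called 1 member between the genotypes, Cox4i2 (adjusted p = 0.0016), where it called 5.55% of all genes, and 0 between the jaws, where it called 0.807%. Between the jaws 1 of 79 members (Atp5g2, 1.27%) had an unadjusted limma p under 0.05, where 5.25% of all genes did. Between the genotypes 3 of 79 (3.80%) did, where 15.7% of all genes did. That fit pairs the libraries by jaw and takes the jaws as replicates for the genotype. It gave every gene of like level the same spread, so the p of Cox4i2 does not reflect that gene's own gap between the jaws (-0.50 in upper and -1.99 in lower molars). The share of summed FPKM changed by less than 1.5 times with failed estimates kept and without the 20 most abundant genes. That tolerance is wider than the gaps between libraries (2.73% to 3.00%), so it does not check which libraries lay closer. Depth limits the isoforms near 0: where not 0, their mean coverage was 0.078 to 1.34 reads a base.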
